A study of Mus musculus with 3 samples.

Results

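The TNF receptor superfamily was described here through 10 genes, Tnfrsf1a, Tnfrsf1b, Tnfrsf10b, Tnfrsf11a, Tnfrsf12a, Tnfrsf14, Tnfrsf21, Tnfrsf26, Ltbr and Fas, which were taken by name from the 22238 genes quantified in all 3 libraries. RNA-Seq was done on 3 populations sorted from adult female wild-type mice on a C57BL/6J background with experimental autoimmune encephalomyelitis (EAE), a model of multiple sclerosis. Every mouse received MOG peptide in complete Freund's adjuvant and pertussis toxin, and cells were taken at days 14 to 15, at the peak of disease. The bone marrow monocytes (BM monocytes) were CD45+ CD11b+ Ly6Chi Ly6G- CD11c- cells that had first been enriched with a monocyte isolation kit. The other two populations came from collagenase-digested cords and were CD45+ CD11b+ CD64+ Ly6G-, with high Ly6C in the spinal cord monocytes (SC monocytes) and low or no Ly6C in the monocyte-derived antigen-presenting cells (APCs). Libraries of unimmunized mice were not analysed here. Cells of several mice over repeated experiments were pooled into 1 library per population, so no difference has a replicate check and no test of the populations was possible. One label of the APC library names the bone marrow as its source, whereas its tissue label, its title and the design text name the spinal cord, and the latter was followed.

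The libraries held 33280643 estimated reads in BM monocytes, 27283795 in SC monocytes and 28209589 in APCs. Levels are given as TPM, a length-corrected share of transcripts, rescaled to the same sum over the common genes, with a 95% Wilson interval. Fold changes were taken from the reads after scaling by median-of-ratios size factors, with a 98% interval. A gene was active above 3 TPM in at least 1 of the 2 libraries compared. It was called higher or lower where it was active and its 98% interval lay wholly beyond a 2-fold change. A gene that was active through 1 library alone had the higher TPM there by definition, so nothing is read from the direction of its call. Intervals cover counting error only, not the spread between samples, and take each read as an independent molecule, which copies made by PCR are not. Both monocyte libraries listed 54432 genes but the APCs 22242, nearly all of them protein-coding. The common genes held 84.9%, 85.3% and 99.99% of the deposited TPM in BM monocytes, SC monocytes and APCs. The deposited TPM of the APCs was thus scaled over the smaller set, and every difference with APCs also spans differing sets of listed genes. How this changed the assignment of reads was not tested. Differences of the receptor genes that involve APCs, and many of those of other genes, are therefore also given after dividing reads by their effective length, the stretch of transcript from which a read could start (length-corrected reads). Such division does not undo reads that were assigned to another transcript. In such pooled RNA, a change in the make-up of a sorted population and a change in RNA per cell cannot be told apart. The cords were digested and spun on a Percoll gradient, whereas the bone marrow was flushed and enriched with a kit. Tissue and cell preparation thus cannot be told apart in any comparison of spinal cord with bone marrow.

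Receptors of the TNF superfamily are membrane proteins that bind trimeric ligands of the TNF family through cysteine-rich repeats. Those with a death domain in the cytosol, here Tnfrsf1a, Fas, Tnfrsf10b and Tnfrsf21, can recruit adaptors that lead to caspase activation, and many of the family, such as Tnfrsf1b, Tnfrsf11a and Ltbr, bind TRAF adaptors that lead to NF-kB and MAP kinase signalling. In EAE the pathway is best known through TNF itself, whose receptor Tnfrsf1a is linked to inflammation and whose receptor Tnfrsf1b is linked to survival and repair.

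The sorted populations were first set beside their defining markers. The 6 monocyte markers were all active and summed to 10228, 8832 and 3244 TPM in BM monocytes, SC monocytes and APCs, with Ly6c2 the most abundant in BM monocytes (5205 TPM) and SC monocytes (3602 TPM), and Csf1r in APCs (1134 TPM). The members did not move together, since Ccr2 was called lower in SC than in BM monocytes (1629 and 299 TPM) and Fcgr1 and Csf1r higher (81.3 and 274 TPM, 374 and 676 TPM). Ly6C was part of every gate, and CD64, encoded by Fcgr1, of both spinal cord gates. The 7 microglia markers used summed to 101.2, 127 and 334 TPM in the same order, with Cx3cr1, which blood monocytes also express, the most abundant at 88.5, 40.4 and 108 TPM. Sall1 and Slc2a5 had 0 reads in the bone marrow and none of the 7 was at 0 in the spinal cord. Of 6 active in SC against BM monocytes, 5 were called higher, all but Cx3cr1 (Tmem119 from 1.82 to 26.01 TPM), and all 7 were called higher in APCs against SC monocytes (6 on length-corrected reads), where 13.8% and 1.93% of all active genes were called higher. Tmem119, Sall1, Siglech and Gpr34 in the first comparison and Slc2a5 in the second were active through the first-named library alone. The 6 T cell markers summed to 0.417, 48.3 and 72.9 TPM, with Cd3g, Cd4 and Trac at 0 reads in the bone marrow, Cd3d the most abundant there (0.308 TPM) and Trac the most abundant in the spinal cord, at 19.2 and 29.1 TPM. Neutrophil markers summed to 996, 178 and 405 TPM, led by Mmp8 (707 TPM) in the bone marrow, Mmp8 (119 TPM) in SC monocytes and Ngp (157 TPM) in APCs. Camp, Ltf, Ngp and Mmp8 were called lower in SC than in BM monocytes and Retnlg, active through the SC monocytes alone, higher (1.77, 16.7 and 57.9 TPM), and Ltf, Ngp and Retnlg were called higher in APCs than in SC monocytes. Endothelial markers summed to 17.2, 73.5 and 45.0 TPM, with Flt1 leading in the spinal cord (43.1 and 26.8 TPM), Pecam1 leading in the bone marrow (9.66 TPM) and Cldn5 at 0 reads there. Markers of CNS-associated macrophages summed to 15.7, 36.8 and 51.1 TPM, led by Pf4 in the bone marrow and Siglec1 in the spinal cord, and Lyve1 was at 0 reads in BM monocytes and APCs. The cDC markers summed to 40.8, 21.3 and 28.3 TPM, led by Flt3, Batf3 and Clec9a in turn. Flt3 alone held 37.8 TPM of the first sum and was called lower in SC monocytes, where Batf3 and Clec9a, both active through that library alone, were called higher (Clec9a at 0.108, 4.38 and 7.40 TPM). The other three had at most 9 reads in the bone marrow and more in both spinal cord libraries.

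The 4 oligodendrocyte markers used summed to 72.96, 47.7 and 46.9 TPM, nearly all of it Mbp in the bone marrow (72.7 TPM), where Mog had 0 reads. Mag and Mobp were under 1 TPM there, so that they were active through the spinal cord libraries alone, and were called higher in both (Mobp at 0.0149, 6.53 and 7.25 TPM). Astrocyte markers, led by Gfap, summed to 4.17, 14.6 and 11.2 TPM with Aqp4 at 0 reads in the bone marrow, and Gfap and Gja1, active through the SC monocytes alone, were called higher there than in BM monocytes (Gfap not on length-corrected reads). NK cell markers, led by Eomes in the bone marrow (0.0337 TPM) and Gzma in the spinal cord, summed to 0.0671, 3.81 and 8.01 TPM with Ncr1, Gzma and Prf1 at 0 reads in the bone marrow and Ncr1 also at 0 in SC monocytes. Neuron markers, led by Map2 in the bone marrow and Nefl in the spinal cord, stayed under 2 TPM in sum in every library, and Snap25, Syt1, Rbfox3 and Nefl had 0 reads in the bone marrow. T cell markers, most endothelial, microglia and cDC markers, and oligodendrocyte markers other than Mbp thus stood higher in both spinal cord libraries than in the bone marrow. The sums of microglia, T cell, NK cell and CNS-associated macrophage markers were highest in APCs. In APCs against SC monocytes, 2 of 5 active cDC markers and 1 of 3 active CNS-associated macrophage markers were called higher and 0 lower. Among all active genes 1.93% were called higher in that step. Of the cDC markers, Zbtb46 and Itgae were active through the APCs alone there. The part of such cells in the receptor values was not tested.

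Upstream sequence is shown for Tnfrsf12a and Tnfrsf21, the receptor genes furthest up and furthest down in SC monocytes against BM monocytes. Both lie on chromosome 17 of GRCm38, Tnfrsf12a (ENSMUSG00000023905.15) from 23675445 to 23677468 on the minus strand and Tnfrsf21 (ENSMUSG00000023915.5) from 43016555 to 43089189 on the plus strand. The 250 bases before each RefSeq start (GRCm38.p6) are written 5′ to 3′ on the strand of the gene, as chr17:23677450-23677699 for Tnfrsf12a and chr17:43016305-43016554 for Tnfrsf21. Capitals mark the GC box GGGCGG on either strand.
Tnfrsf12a: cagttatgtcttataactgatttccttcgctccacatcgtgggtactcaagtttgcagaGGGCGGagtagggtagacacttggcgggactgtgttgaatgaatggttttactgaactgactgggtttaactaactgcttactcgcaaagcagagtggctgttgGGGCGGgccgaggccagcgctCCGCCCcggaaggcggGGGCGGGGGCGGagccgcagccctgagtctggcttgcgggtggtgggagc
Tnfrsf21: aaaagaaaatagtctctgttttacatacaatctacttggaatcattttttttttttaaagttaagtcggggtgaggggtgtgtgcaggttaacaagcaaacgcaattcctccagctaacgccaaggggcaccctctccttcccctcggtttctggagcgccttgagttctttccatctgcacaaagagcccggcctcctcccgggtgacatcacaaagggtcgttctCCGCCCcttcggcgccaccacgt
Tnfrsf12a held 5 GC boxes in this stretch, the nearest beginning 44 bases before the start, and Tnfrsf21 held 1, beginning 23 bases before it.

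RefSeq promoters, taken as 250 bases before to 50 after the start, were matched for 8 of the 10 receptor genes, all but Tnfrsf10b and Tnfrsf26. For Tnfrsf1a and Tnfrsf14 this window lay wholly inside the gene as placed by GENCODE. It ran from 125349473 to 125349772 for Tnfrsf1a, whose gene begins at 125349362. For Tnfrsf14, on the minus strand, it ran from 154928028 to 154928327, and the gene begins at 154928563. Their matches, missing matches and GC content are thus not those of sequence before the GENCODE gene. GC boxes were found in 6 of the 8 (Tnfrsf1b, Tnfrsf11a, Tnfrsf12a, Tnfrsf21, Ltbr and Fas) and in 35.7% of all 32851 promoters. The kB motif GGGNNTTTC of NF-kB was found in none of the 8 and in 4.36% of all promoters, the PU.1 site GAGGAAGT in none and 3.20%, and the TATA box TATAAA in none and 13.6%. An AP-1 site TGANTCA was found in Fas alone among the 8 (7.81% of all). The interferon response motif GAAANNGAA was found in Tnfrsf1b and Tnfrsf14 (8.56% of all), and the STAT site TTCNNNGAA in Tnfrsf1a, Tnfrsf1b and Fas (8.30% of all). Every motif was searched on both strands. No motif holds another within it, but single matches can overlap. A match is a run of letters only, and the absence of a match holds for this window alone. GC content was lowest in Tnfrsf14 (48.7%) and highest in Tnfrsf11a (76.7%), against a median of 52.7% over all promoters.

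Every receptor gene had more than the floor of 3 reads in each library. Of the 10, 8 were above 3 TPM in BM monocytes and 9 in each spinal cord population. Their summed level was 803 TPM in BM monocytes, 869 TPM in SC monocytes and 612 TPM in APCs. Tnfrsf1b and Tnfrsf1a stood first and second in every library and together made up 52.8%, 54.4% and 58.6% of that sum. Tnfrsf10b was lowest in every library. The order between these ends differed between libraries. Tnfrsf21 ranked 3 in BM monocytes, 7 in SC monocytes and 6 in APCs, whereas Tnfrsf12a ranked 8, 4 and 5.

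**Figure D1:**
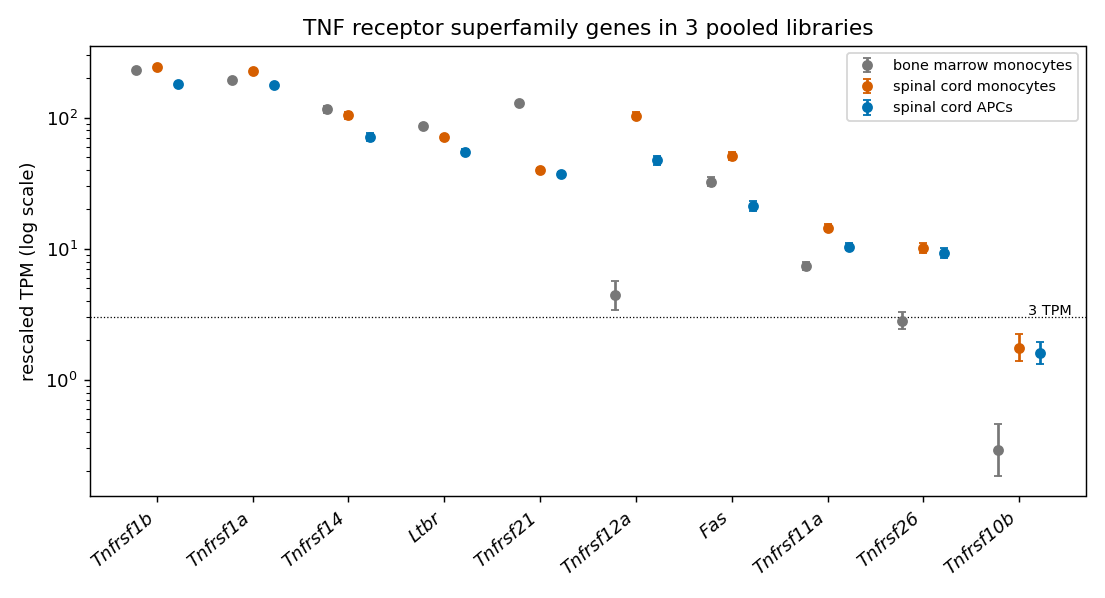
Rescaled TPM (log axis) of the 10 receptor genes in BM monocytes, SC monocytes and APCs, 1 pooled library each, with 95% Wilson intervals that cover counting error only. Tnfrsf12a and Tnfrsf26 are lowest in the bone marrow, Tnfrsf21 is highest there, and Tnfrsf10b stays under the dotted line at 3 TPM in all 3.

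In SC monocytes against BM monocytes, Tnfrsf12a and Tnfrsf26 were called higher and Tnfrsf21 lower, out of 9 active receptor genes. Tnfrsf26 was active through the spinal cord libraries alone, the other 8 in every library. With an assumed coefficient of variation of 0.2 in each library Tnfrsf21 was no longer called, and with 0.4 Tnfrsf26 was lost as well, both here and in APCs against BM monocytes. Among all 10072 active genes, 13.8% were called higher and 10.7% lower (14% and 11.2% on length-corrected reads). Over the 8 receptor genes active in both libraries the median log2 fold change was 0.46, against -0.15 over all 8666 such genes, and 6 of the 8 lay above 0, as did 3567 of the 8666. These medians are on reads scaled by size factors. Scaling by total reads shifts every log2 value of this step by -0.18, and the TPM scale lies 0.24 below length-corrected reads, so small differences depend on the scale.

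In APCs against SC monocytes, 0 of the 9 active receptor genes were called in either direction, with 1.93% of all 9734 active genes called higher and 1.7% lower (2.38% and 3.29% on length-corrected reads). At a plain 2-fold change, without the interval, Tnfrsf12a and Fas were lower. All 9 had log2 fold changes below 0, with a median of -0.42 (-0.34 on length-corrected reads), against -0.04 over all active genes, of which 5206 lay below 0. The interval held 0 for Tnfrsf21 and Tnfrsf26. In APCs against BM monocytes, Tnfrsf12a and Tnfrsf26 were called higher and Tnfrsf21 lower, with 14% of 10190 active genes called higher and 11.8% lower (14.3% and 12.7% on length-corrected reads). The median of the 8 receptor genes active in both libraries was -0.14, against -0.19 over all such genes. The comparisons share libraries and are not independent of each other.

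**Figure D2:**
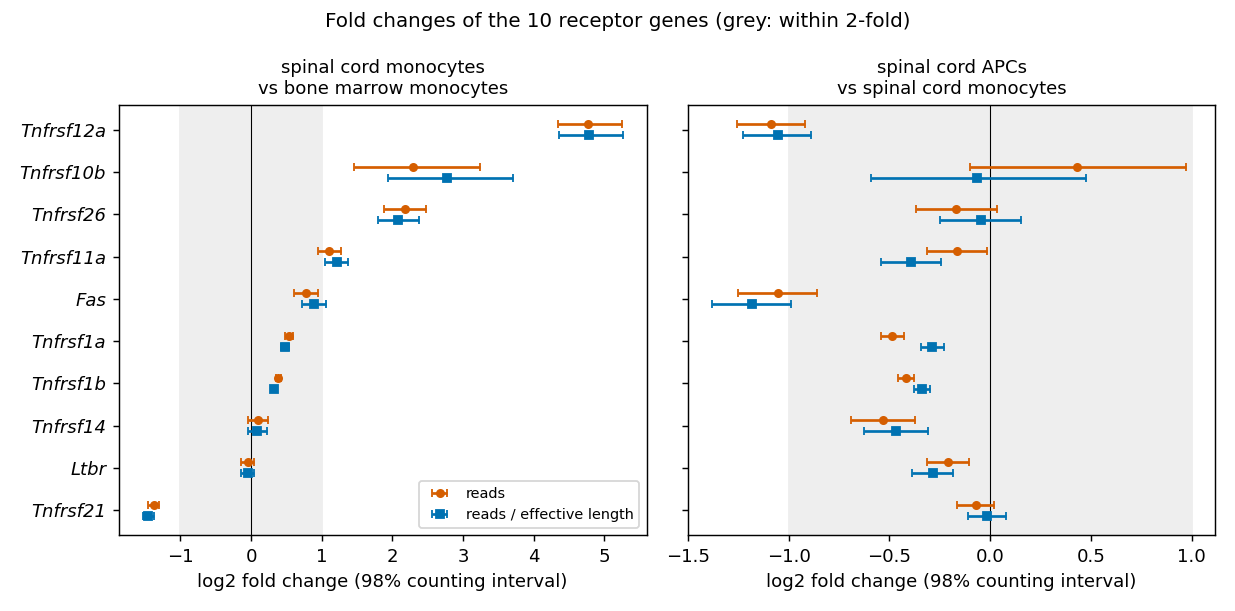
Log2 fold changes of the 10 receptor genes with 98% counting intervals, on reads (circles) and on length-corrected reads (squares), with the range within 2-fold in grey. In the left panel (SC against BM monocytes) Tnfrsf12a at 4.77 stands apart and Tnfrsf21 at -1.38 is the only gene below the grey range, and in the right panel (APCs against SC monocytes, on a narrower axis) every interval reaches into the grey range on reads.

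Tnfrsf12a encodes Fn14, the receptor of the ligand TWEAK, which is known to be induced by growth factors and tissue injury. It had 58 reads in BM monocytes, 1147 in SC monocytes and 601 in APCs. Its level was 4.42 TPM (95% interval 3.42 to 5.71), 104 TPM (98.2 to 110.3) and 47.3 TPM (43.7 to 51.2) in the same order, and the 3 intervals do not overlap. In SC monocytes it was 27.3-fold higher than in BM monocytes, and the log2 fold change was 4.77 (98% interval 4.34 to 5.24). By log2 fold change, 96.5% of the active genes lay below it. In APCs it was 2.13-fold lower than in SC monocytes, at -1.09 (-1.26 to -0.92) on the log2 scale and -1.05 on length-corrected reads, so that the interval reached inside a 2-fold change and the gene was not called in this step. It remained 12.9-fold higher in APCs than in BM monocytes (log2 fold change 3.68, 98% interval 3.24 to 4.16, and 3.73 on length-corrected reads). Its share of the summed receptor TPM was 0.550% in BM monocytes, 11.98% in SC monocytes and 7.73% in APCs.

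Tnfrsf26 (ENSMUSG00000045362.8) lies on chromosome 7 of GRCm38 from 143607659 to 143628722, next to Tnfrsf22 at a distance of 6083 bases and near Tnfrsf23 at 37086 bases, which encode decoy receptors of TRAIL in the mouse. It had 172, 556 and 552 reads, or 2.83 TPM (95% interval 2.44 to 3.29) in BM monocytes, 10.1 TPM (9.33 to 11.0) in SC monocytes and 9.27 TPM (8.53 to 10.1) in APCs. Both spinal cord values were above the bone marrow value, and their own intervals overlap. SC monocytes were 4.50-fold above BM monocytes (log2 fold change 2.17, 98% interval 1.88 to 2.47) and APCs were 4.01-fold above them (2.00, 1.72 to 2.30, and 2.03 on length-corrected reads). Between APCs and SC monocytes the interval of the log2 fold change (-0.17, and -0.05 on length-corrected reads) ran from -0.37 to 0.03. An antisense gene overlaps Tnfrsf26 on the other strand, and reads can also be split among related neighbours. Whether this touched the values was not tested.

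Tnfrsf21 encodes DR6, a death domain receptor with no ligand of the TNF family assigned to it with certainty. Reads numbered 8953 in BM monocytes, 2466 in SC monocytes and 2614 in APCs. The level was 129 TPM (95% interval 126 to 132) in the bone marrow, 39.7 TPM (38.1 to 41.3) in SC monocytes and 37.1 TPM (35.7 to 38.6) in APCs. The bone marrow value stood above both others, whose intervals overlap. It was 2.60-fold lower in SC monocytes (log2 fold change -1.38, 98% interval -1.45 to -1.30) and 2.73-fold lower in APCs (-1.45, -1.53 to -1.38, and -1.47 on length-corrected reads) than in BM monocytes, with 8.70% and 8.52% of the active genes at lower values. APCs and SC monocytes differed by -0.07 (-0.17 to 0.02), or -0.01 on length-corrected reads.

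**Figure D3:**
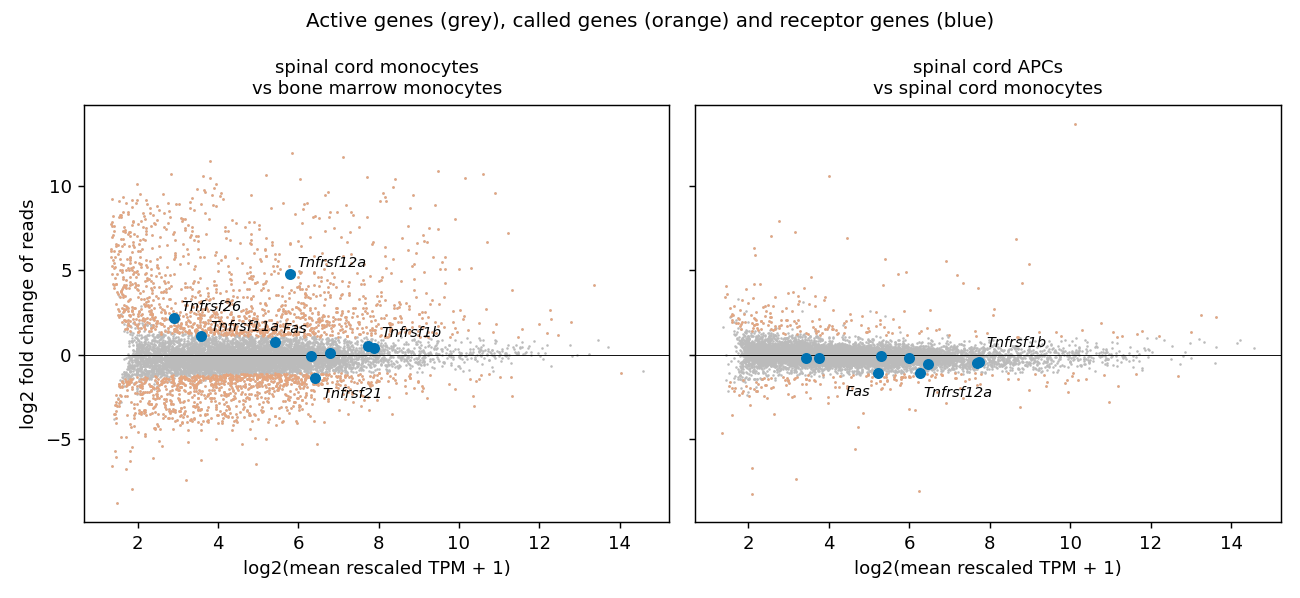
Log2 fold change of reads against log2 of the mean rescaled TPM plus 1 for active genes (grey), called genes (orange) and the 9 active receptor genes (blue), for SC against BM monocytes on the left and APCs against SC monocytes on the right. On the left Tnfrsf12a and Tnfrsf26 lie among the called genes above 0 and Tnfrsf21 among those below, and on the right all 9 lie in or at the edge of the grey cloud, Fas and Tnfrsf12a lowest.

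The receptors of TNF were the most abundant of the 10 genes. Tnfrsf1a (ENSMUSG00000030341.17; chromosome 6 from 125349362 to 125362484) encodes the death domain receptor of TNF and lymphotoxin alpha. Its reads were 7714, 8015 and 6383, or 194 TPM (95% interval 190 to 199) in BM monocytes, 229 TPM (224 to 234) in SC monocytes and 177 TPM (173 to 182) in APCs. Tnfrsf1b (ENSMUSG00000028599.10; chromosome 4 from 145213463 to 145246870), the receptor without a death domain that responds best to TNF on membranes, had 17235, 16132 and 13461 reads, or 230.2 TPM (227 to 234), 243 TPM (239 to 247) and 182 TPM (178 to 185). For both genes SC monocytes were highest and APCs lowest on the TPM scale. The ratio of Tnfrsf1b to Tnfrsf1a in TPM was 1.19, 1.06 and 1.02 in BM monocytes, SC monocytes and APCs.

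On reads, the log2 fold change of SC monocytes against BM monocytes was 0.54 (98% interval 0.48 to 0.59) for Tnfrsf1a and 0.39 (0.35 to 0.42) for Tnfrsf1b. From SC monocytes to APCs it was -0.48 (-0.54 to -0.43) and -0.42 (-0.46 to -0.38), or -0.29 and -0.34 on length-corrected reads. Every interval of both steps excluded 0 and lay within a 2-fold change, so neither gene was called. The first step gave 0.35 for Tnfrsf1a and 0.20 for Tnfrsf1b with total reads, and 0.24 and 0.08 on TPM plus 1, so its size depends on the scale. APCs and BM monocytes differed by -0.03 (-0.07 to 0.01) for Tnfrsf1b, or -0.02 on length-corrected reads. For Tnfrsf1a they differed by 0.05 on reads, with an interval that just held 0, by 0.19 on length-corrected reads, with one that did not, and by -0.13 on TPM plus 1, so that the sign depends on the scale.

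By distance in the pair of log2 fold changes, the 3 genes nearest to Tnfrsf1b among 10193 active protein-coding genes included Srebf2 (0.39 and -0.43) and Rab5a (0.40 and -0.40), where the first value is SC against BM monocytes and the second APCs against SC monocytes. Nearest to Tnfrsf12a were Tnfaip6 (4.80 and -1.09), Gbp2 (4.93 and -0.92) and Trib1 (4.87 and -0.84). The likeness rests on 3 libraries. Gbp2 was far more abundant than Tnfrsf12a, at 44.5, 1081 and 585 TPM, and Tnfaip6 less, at 1.61, 36.4 and 17.3 TPM.

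Fas (ENSMUSG00000024778.13; chromosome 19 from 34290666 to 34327772) encodes the death domain receptor of Fas ligand. It had 683, 837 and 449 reads, or 32.6 TPM (95% interval 30.2 to 35.1) in BM monocytes, 51.0 TPM (47.7 to 54.6) in SC monocytes and 21.2 TPM (19.3 to 23.2) in APCs. The 3 intervals do not overlap, with SC monocytes highest and APCs lowest. Against BM monocytes, the log2 fold change of SC monocytes was 0.77 (98% interval 0.60 to 0.95). APCs stood 2.08-fold below SC monocytes, at -1.05 (-1.25 to -0.86) on the log2 scale, which was not called, and at -1.18 on length-corrected reads. By this log2 fold change only 2.72% of the active genes lay lower than Fas, and 2.49% lower than Tnfrsf12a.

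Tnfrsf10b (ENSMUSG00000022074.6; chromosome 14 from 69767472 to 69784411), the mouse death receptor of TRAIL, was the one receptor gene below 3 TPM in every library. It had 18, 65 and 98 reads, or 0.293 TPM (95% interval 0.185 to 0.463) in BM monocytes, 1.76 TPM (1.38 to 2.25) in SC monocytes and 1.60 TPM (1.31 to 1.95) in APCs. Both spinal cord values were above the bone marrow value, by 4.91-fold in monocytes (log2 fold change 2.30, 98% interval 1.46 to 3.23) and 6.62-fold in APCs (2.73, 1.93 to 3.64, and 2.71 on length-corrected reads). The gene was not active and so was not called. Between APCs and SC monocytes the log2 fold change was 0.43 on reads and -0.06 on length-corrected reads, and both intervals held 0. Its effective length was 2825, 1894 and 2929 bases in the 3 libraries, and the ratio of the highest to the lowest was larger than for the other 9 genes.

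Tnfrsf11a (ENSMUSG00000026321.7; chromosome 1 from 105780718 to 105847981) encodes RANK, the receptor that drives osteoclast formation. With 674, 1041 and 1035 reads it stood at 7.38 TPM (95% interval 6.85 to 7.96) in BM monocytes, 14.5 TPM (13.6 to 15.4) in SC monocytes and 10.4 TPM (9.78 to 11.0) in APCs, with no overlap between the intervals. SC monocytes were 2.16-fold above BM monocytes (log2 fold change 1.11, 98% interval 0.94 to 1.28), short of a call. On reads divided by effective length the value was 1.21 (1.05 to 1.38) and the gene was called. APCs were lower than SC monocytes by -0.16 on reads and -0.39 on length-corrected reads.

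Ltbr (ENSMUSG00000030339.7; chromosome 6 from 125306571 to 125313885) encodes the lymphotoxin beta receptor, which signals to the alternative NF-kB pathway, and lies 35476 bases from Tnfrsf1a with 1 protein-coding gene between them. Its reads were 3194, 2210 and 2131, or 86.8 TPM (95% interval 83.8 to 89.9), 71.0 TPM (68.1 to 74.0) and 55.04 TPM (52.8 to 57.4). On reads, SC and BM monocytes differed by -0.05 (98% interval -0.14 to 0.04), and APCs were at -0.21 (-0.31 to -0.11) against SC monocytes, or -0.28 on length-corrected reads. The neighbours Tnfrsf1a and Ltbr thus had log2 fold changes of 0.54 and -0.05 on reads in the first step, and the ratio of their TPM was 2.24, 3.23 and 3.22. In that step Ltbr was at -0.23 with total reads and -0.29 on TPM plus 1, so the size of its difference depends on the scale.

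Tnfrsf14 (ENSMUSG00000042333.16; chromosome 4 from 154921933 to 154928563) encodes HVEM, the receptor of LIGHT and a partner of the inhibitory receptor BTLA. It had 1337, 1027 and 791 reads, or 116 TPM (95% interval 109.7 to 122), 104 TPM (98.01 to 111) and 71.2 TPM (66.4 to 76.4). The first step gave 0.10 on reads (98% interval -0.04 to 0.24), -0.08 with total reads and -0.15 on TPM plus 1, so its sign depends on the scale. APCs were at -0.53 (-0.69 to -0.37) against SC monocytes, -0.47 on length-corrected reads, and not called.

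**Figure D4:**
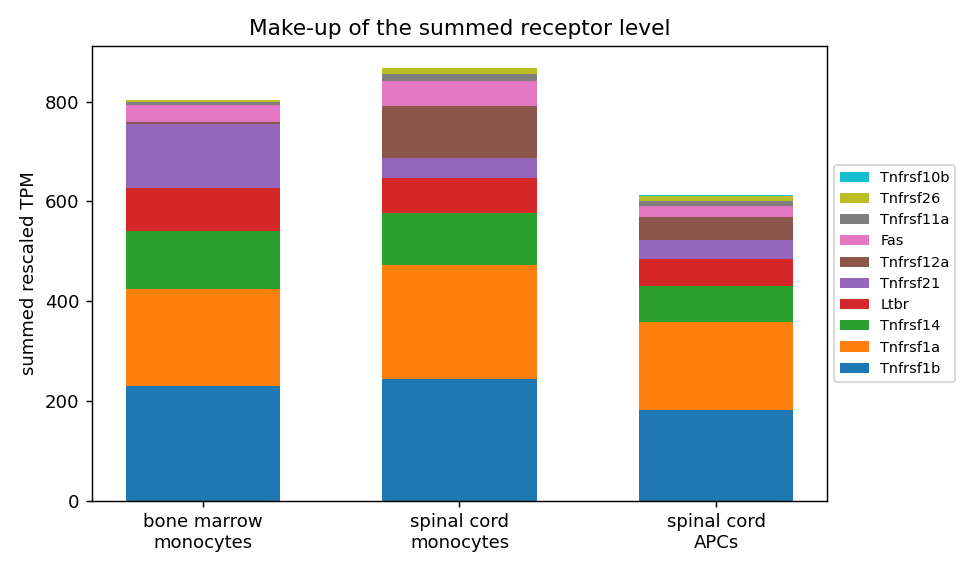
Summed rescaled TPM of the 10 receptor genes in each library, stacked by gene with the most abundant at the bottom. The sums are 803, 869 and 612 TPM. Tnfrsf21 takes 16.0% of the first bar and Tnfrsf12a 0.550%, and in SC monocytes they take 4.57% and 11.98%.

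Per transcript, the 4 death domain receptors made up 44.3% of the summed receptor TPM in BM monocytes, 37.0% in SC monocytes and 38.8% in APCs. Without Tnfrsf21 the share was 33.7%, 34.0% and 34.8%, and without Tnfrsf12a, which counts in the sum alone, it was 44.6%, 42.1% and 42.0%. Tnfrsf21 itself went from 16.0% to 4.57% and 6.06%. The most abundant receptor gene exceeded the least abundant by 786-fold in the bone marrow, 138-fold in SC monocytes and 113-fold in APCs, with Tnfrsf10b as the least abundant in each.

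The other 18 receptor genes of the family were set beside the 10. In SC against BM monocytes, 5 of the 7 active ones were called higher and 1 lower, and against BM monocytes 6 of 8 were called higher in APCs and 2 lower, beside 13.8% higher and 10.7% lower among all active genes in the first comparison and 14% and 11.8% in the second. Of the active ones, 3 (Tnfrsf4, Tnfrsf9 and Tnfrsf18) in the first comparison passed 3 TPM through the spinal cord library alone. In the second, 4 did (these and Tnfrsf22). Their TPM had to be higher there, and nothing is read from these counts. Cd40, the receptor of CD40 ligand on antigen-presenting cells, had 9.16, 109 and 82.8 TPM in BM monocytes, SC monocytes and APCs and was 13.2-fold higher in SC than in BM monocytes (log2 fold change 3.72). Tnfrsf9 (4-1BB), a costimulatory receptor, had 0, 709 and 2517 reads, or 25.8 TPM in SC monocytes and 78.5 TPM in APCs, at least 330.1-fold and at least 1051-fold above the floor of 3 reads in the bone marrow library. It was called higher in APCs than in SC monocytes, at 1.67 (98% interval 1.53 to 1.81, and 1.69 on length-corrected reads), as was Tnfrsf22, at 1.49 (1.08 to 1.93) on reads and 2.30 on length-corrected reads. These were 2 of the 8 active genes of this list in that step, and none was called lower, with 1.93% of all active genes called higher. Tnfrsf22 was active through the APCs alone.

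Tnfrsf22 had 0.588, 1.31 and 6.16 TPM and its neighbour Tnfrsf23 had 4.51, 16.9 and 19.6 TPM, the latter called higher in both spinal cord populations than in the bone marrow (2.05 and 2.53, the latter 2.44 on length-corrected reads). Of the pair often found on activated T cells, Tnfrsf4 (OX40) stood at 0.121, 6.00 and 10.8 TPM, with 2 reads in the bone marrow and a log2 fold change of 5.45 (98% interval 3.75 to 8.08) to SC monocytes, and Tnfrsf18 (GITR) at 1.26, 4.47 and 9.06 TPM, with 2.12. The T cell markers given above, at 0.417, 48.3 and 72.9 TPM in sum, were ordered the same way. Both spinal cord gates required CD11b and CD64, and the part of T cells in these values was not tested. Tnfrsf13b (TACI), a receptor of BAFF and APRIL, had 112, 39.1 and 20.9 TPM and was called lower in both spinal cord populations than in the bone marrow (-1.23 and -1.46, the latter -2.09 on length-corrected reads). Relt had 69.9, 29.7 and 22.9 TPM and was called lower in APCs against BM monocytes (-1.17, and -1.29 on length-corrected reads) but not in the other comparisons. On length-corrected reads, Tnfrsf13b was at -0.82 in APCs against SC monocytes (-0.23 on reads) and not called. B cells also express Tnfrsf13b, and the 4 B cell markers used summed to 8.69, 3.45 and 3.76 TPM, with Cd79b the most abundant in each (8.54, 2.55 and 3.26 TPM) and Pax5 at 0 reads in the bone marrow. Cd79a had 1, 6 and 10 reads and Ms4a1 had 6, 29 and 5, and every gate required CD11b. The part of B cells in these values was not tested either.

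Among 18 ligand genes, 5 of 8 active ones were called higher and 0 lower in SC against BM monocytes, 0 of 10 were called in APCs against SC monocytes, and 8 of 10 were called higher in APCs against BM monocytes. Of all active genes, 13.8% were called higher in the first of these comparisons, 1.93% higher and 1.7% lower in the second, and 14% higher in the third. Ltb, Tnfsf9 and Tnfsf11 in the first, Lta and Cd40lg in the second, and all 5 of these in the third passed 3 TPM through the first-named library alone. Their TPM had to be higher there, and nothing is read from these counts. Tnf, the ligand of Tnfrsf1a and Tnfrsf1b, had 338, 10109 and 8136 reads, or 11.5, 385 and 281 TPM. It was 41.7-fold higher in SC than in BM monocytes, at 5.38 on the log2 scale (98% interval 5.20 to 5.57), beside 0.54 and 0.39 for its receptors. Tnfsf12 (TWEAK), the ligand of Tnfrsf12a, had 23.3, 31.8 and 57.1 TPM and a log2 fold change of 0.72 (0.53 to 0.90) in that step, then 0.86 (0.70 to 1.01, and 0.93 on length-corrected reads) from SC monocytes to APCs, where Tnfrsf12a was at -1.09. It was called in APCs against BM monocytes (1.57, and 1.62 on length-corrected reads). A read-through gene overlaps Tnfsf12 and its neighbour Tnfsf13 on chromosome 11, so that reads could be split among the 3 genes. Tnfsf13 (APRIL) was at 94.3, 56.8 and 61.3 TPM and was not called.

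Tnfsf14 (LIGHT), which binds Tnfrsf14 and Ltbr, had 18.0, 31.3 and 21.7 TPM and was not called (1.12, 98% interval 0.95 to 1.30, in the first step). Ltb, a subunit of the other ligand of Ltbr, was called higher in SC than in BM monocytes, at 1.51, 6.69 and 8.27 TPM and a log2 fold change of 2.44. Lta, its partner, had 0, 33 and 94 reads, and 3.98 TPM in APCs. Tnfsf11 (RANKL), the ligand of Tnfrsf11a, had 0, 117 and 234 reads, or 3.08 TPM in SC monocytes and 5.65 TPM in APCs, at least 54.5-fold and at least 97.7-fold above the floor of the bone marrow library. Cd40lg had 0, 49 and 99 reads and 4.75 TPM in APCs. Lta, Tnfsf11 and Cd40lg are genes that T cells also express, and the sums of T cell markers stand above, as do the CD11b and CD64 gates of both spinal cord populations. Tnfsf9, the ligand of Tnfrsf9, had 1.45, 35.4 and 48.7 TPM (29.7-fold higher in the first step), and Tnfsf13b (BAFF) had 6.26, 16.2 and 23.7 TPM (2.54-fold higher). Tnfsf10 (TRAIL), the ligand of Tnfrsf10b, and Fasl, the ligand of Fas, were under 3 TPM in every library, with 131, 256 and 231 reads and 0, 19 and 46 reads. Cd70 and Eda had 0 reads in SC monocytes, and Tnfsf4, Tnfsf15, Tnfsf18 and Cd70 had 0 in the bone marrow.

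**Figure D5:**
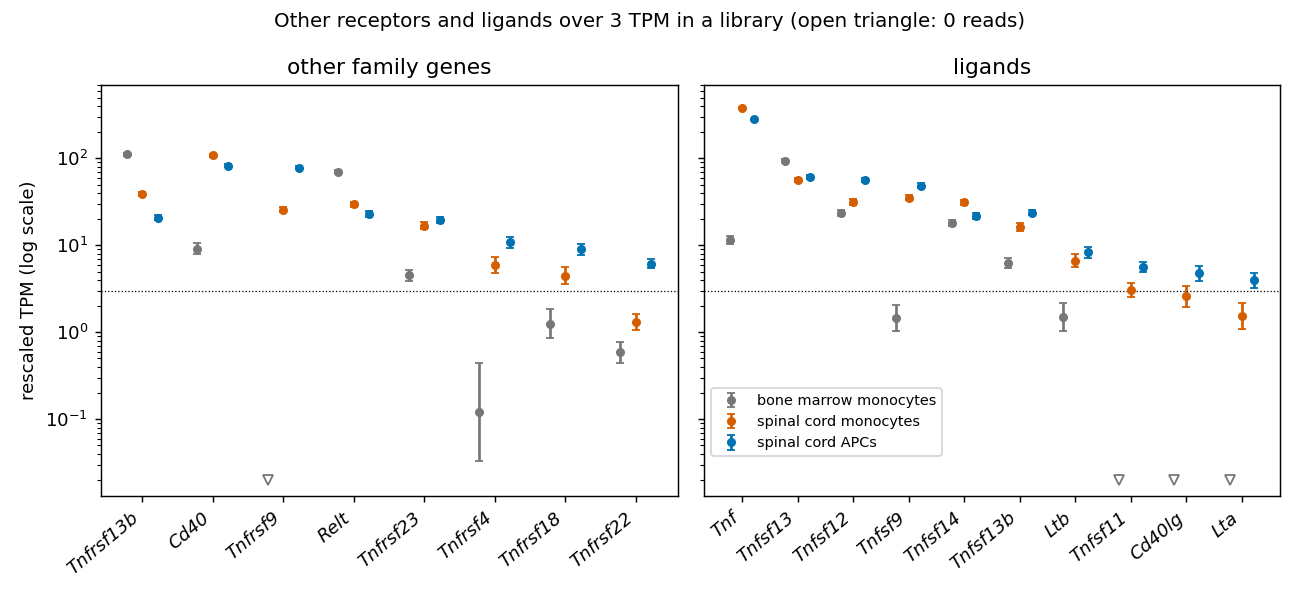
Rescaled TPM (log axis, 95% Wilson intervals) of the 8 other receptor genes and 10 ligand genes above 3 TPM in at least 1 library, with an open triangle where a library had 0 reads and a dotted line at 3 TPM. Tnf, Cd40 and Tnfrsf9 are lowest in the bone marrow, and Tnfrsf13b, Relt and Tnfsf13 are highest there.

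All 31 listed adaptors, kinases, regulators and sheddases of the pathway were active. In SC against BM monocytes 6 were called higher and 0 lower, where 13.8% and 10.7% of all active genes were called, and the median log2 fold change was 0.29, also over the 30 genes active in both libraries. Traf1, 1 of the 6, was active through the spinal cord libraries alone. Tnfaip3 (A20), a ubiquitin-editing inhibitor of NF-kB, had 13.2, 555 and 415 TPM and was 57.9-fold higher in SC than in BM monocytes (log2 fold change 5.86, 98% interval 5.75 to 5.97). Traf1, an adaptor that binds Tnfrsf1b with TRAF2, had 0.683, 53.4 and 37.1 TPM (6.79, 6.04 to 7.70). Cflar (c-FLIP), which blocks caspase-8 below the death receptors, had 49.1, 213 and 78.9 TPM (2.15, 2.09 to 2.22). Traf3 and Traf6 were each at 1.55, and Rhbdf2 (iRhom2), a partner of the sheddase that releases TNF and its receptors, was at 1.78. Adam17, that sheddase, was at 0.74 and not called.

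In APCs against SC monocytes 0 of 31 were called, where 1.93% of all active genes were called higher and 1.7% lower, and 27 lay below 0, with a median of -0.33. On reads divided by effective length 3 were called lower, Cflar (-1.35), Birc3 (-1.44) and Chuk (-1.44), whose values on reads were -1.04, -0.53 and -0.86, and 3.29% of all active genes were called lower on that scale. Against BM monocytes, 5 were called higher in APCs (Tnfaip3, Traf3, Traf6, Cflar and Traf1, the last active through the APCs alone) and 2 lower, Map3k5 (-1.28) and Ikbkb (-1.25), where 14% and 11.8% of all active genes were called, and the median over the 30 genes active in both libraries was -0.08. On length-corrected reads Cflar (1.01) and Map3k5 (-0.99) were not called in that comparison, and Map3k7 (-1.43, against -1.02 on reads) was called lower, as was Ikbkb (-1.59). The death domain adaptors Tradd and Fadd and the kinase Ripk1, which act directly below Tnfrsf1a and Fas, were not called in any comparison, at 0.28, -0.69 and 0.29 in the first step.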

How the data were processed

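Sorted cells were pooled into 1 library per population. The authors sequenced the libraries and quantified them with Salmon (0.14.1 per the submitters' processing notes) on GENCODE vM22 of mm10, pooling the isoforms of each gene. The deposited estimated counts carry no normalization, and in the deposited TPM the authors had corrected for effective length and depth. The methods name this annotation for all libraries, yet 97.7% of the genes listed for the APCs that matched the annotation were protein-coding, against 39.9% for the monocyte libraries, and the reason was not tested. Estimated counts were rounded to whole reads. The log2 ratio of each pair of libraries was the median of a posterior from gamma distributions with 1 added to the reads, after median-of-ratios scaling, with percentiles 1 and 99 as bounds, after the authors' definition by GFold, which itself was not run. TPM was rescaled to an equal sum over 22238 genes. Positions are those of GENCODE M21 (GRCm38), where all 10 receptor genes have the deposited identifier and version.

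All 10 receptor genes were named, as were active other receptors and ligands, called signalling genes (with the adaptors of the first step), the most abundant markers and those at 0, and the 3 genes nearest in pattern to the most abundant and the most changed receptor. Some genes that this rule named are not reported here, and the summed marker levels leave such markers out. Adam17, Tradd, Fadd and Ripk1 were named after their values were seen. The members and lists were chosen with earlier results of these data known. The alternatives, 13 in all, were scaling by total reads or by TMM, a threshold on TPM of 4 or of none, an assumed coefficient of variation of 0.2 or 0.4, division of reads by effective length, percentiles 0.1 and 99.9, 0.5 reads added, a plain 2-fold change, TPM with a pseudocount of 1 or 0.1, and all genes of the monocyte libraries. TPM as deposited and shares of receptor reads were also computed. The work used R 4.3.3 with edgeR 4.0.16 (for TMM only) and Python 3.11.15 with scipy 1.17.1, numpy 2.4.6, matplotlib 3.10.9 and pandas 2.3.3.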

Additional observations from a re-analysis of the deposited data

How the results depend on the processing

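No paired analysis was possible because each population had 1 library, and no replicate could be left out. Of 370 log2 fold changes of the receptor genes under the 13 alternatives, 344 kept their sign and their side of the threshold, 10 gained a call, 6 lost one and 10 uncalled values changed sign, those of Tnfrsf14 in the first step, Tnfrsf10b in APCs against SC monocytes and Tnfrsf1a in APCs against BM monocytes. No called value changed sign. TPM as deposited was lower in the monocyte libraries, where the common genes held 84.9% and 85.3% of it, and shares taken from reads favour long transcripts (Tnfrsf1b 43.0%, against 28.7% of TPM, in BM monocytes). With an assumed coefficient of variation of 0.4 in each library, 1 receptor gene (Tnfrsf12a) instead of 3 was called in SC monocytes and 1 in APCs against BM monocytes, and with 0.2 the call of Tnfrsf21 was lost, leaving 2. In APCs against SC monocytes, 2 receptor genes (Tnfrsf12a and Fas) were called lower, instead of 0, at a plain 2-fold change and on TPM with a pseudocount of 1 or 0.1. The TPM settings changed the scale and also took no interval, so their counts, here and below, are not put down to the scale alone. Over all active genes, 1386 were called higher and 1073 lower in SC against BM monocytes, which became 622 and 218 with an assumed 0.4, 910 and 445 with 0.2, 2623 and 1178 with no TPM threshold, 1239 and 1394 with total reads, 1315 and 1890 on TPM plus 1, 1391 and 2137 on TPM plus 0.1 and 1371 and 1587 over all genes of the monocyte libraries. In APCs against SC monocytes 188 and 165 became 41 and 14, 83 and 35, 385 and 292, 201 and 147, 274 and 528, 351 and 617 with the same settings in the same order, without the last, 326 and 302 at a plain 2-fold change, and 232 and 320 after division by effective length. In APCs against BM monocytes 1426 and 1199 became 714 and 222 with an assumed 0.4, 968 and 488 with 0.2, 2870 and 1333 with no threshold, 1315 and 2433 on TPM plus 1 and 1381 and 2682 on TPM plus 0.1. With 1 library per population the spread between mice is not known, so an interval narrower than that spread does not bound a difference between populations.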
